A study of Mus musculus with 19 samples.

Results

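Resting hippocampal neurons in culture were profiled for RNA, acetylation of histone H3 at lysine 27 (H3K27ac), monomethylation of histone H3 at lysine 4 (H3K4me1) and CpG methylation. Membership was set by the labels: every sample marked as untreated and used here entered, which gave 3 RNA libraries, 2 H3K27ac peak lists, 2 H3K4me1 peak lists and 1 bisulfite library, or 8 of the 19 samples of the series. The cells were mouse hippocampal neurons taken at embryonic day 17 and grown for 10 days. RNA and histone samples came from ICR mice and the bisulfite library from C57BL/6 mice, so methylation was read in another strain. For comparison, 3 RNA libraries from cultures given tetrodotoxin (TTX, a sodium channel blocker that silences firing) and 3 from cultures given bicuculline with 4-aminopyridine (Bic/4AP, a GABA-A receptor antagonist with a potassium channel blocker) for 3 h were used; these also came from ICR mice of the same age and culture time. Nothing in the labels ties the libraries of one group to cultures grown apart, so the spread between them, and the p-values built on it, may be technical. How long TTX was given is not stated in the labels.

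H3K27ac is a mark of active promoters and enhancers, laid down by the acetyltransferases CBP and p300. H3K4me1 marks enhancers and the flanks of active promoters, and is usually low at the start itself, where trimethylation of the same lysine takes its place. CpG methylation covers most of the mammalian genome; CpG-rich promoters usually escape it, and those that do not are mostly silent.

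Expression was related to the marks in 17801 genes, those of the 24058 gene names in the expression files for which a transcription start on the mm10 build was at hand. Of these, 16353 were protein-coding and 1448 long noncoding. A promoter was the stretch of 1000 bases on each side of the first listed start. A promoter carried a mark where a peak overlapped it by at least 1 base, and its CpG level was the mean over the CpGs listed in it, with at least 5 of them. Levels under 0.1 are called unmethylated and levels of 0.5 or more methylated.

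The 6 promoters printed next show the range of the sequences and states described further on. Each is the 250 bases just before the start, 5′ to 3′ on the gene's strand, from RefSeq on GRCm38.p6, with every CpG in capitals. Map2 encodes a dendritic microtubule protein (chr1:66175079-66175328, plus strand), Sst the neuropeptide somatostatin (chr16:23890845-23891094, minus strand), Nkx2-1 a homeodomain factor of the ventral forebrain, lung and thyroid (chr12:56536909-56537158, minus strand), Dazl an RNA-binding protein of germ cells (chr17:50293621-50293870, minus strand), Nap1l5 a nucleosome assembly protein from an imprinted locus (chr6:58907127-58907376, minus strand) and Csn2 the milk protein beta-casein (chr5:87699426-87699675, minus strand).
Map2: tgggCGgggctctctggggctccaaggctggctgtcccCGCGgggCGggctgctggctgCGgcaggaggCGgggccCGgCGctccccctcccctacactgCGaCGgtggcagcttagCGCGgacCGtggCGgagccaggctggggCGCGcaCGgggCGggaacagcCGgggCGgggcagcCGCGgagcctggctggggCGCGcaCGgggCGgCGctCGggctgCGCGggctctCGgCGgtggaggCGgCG
Sst: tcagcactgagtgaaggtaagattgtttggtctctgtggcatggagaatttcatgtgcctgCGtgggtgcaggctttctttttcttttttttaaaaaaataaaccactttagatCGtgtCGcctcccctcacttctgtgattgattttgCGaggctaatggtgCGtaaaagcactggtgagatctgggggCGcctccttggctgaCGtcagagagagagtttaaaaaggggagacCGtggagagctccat
Nkx2-1: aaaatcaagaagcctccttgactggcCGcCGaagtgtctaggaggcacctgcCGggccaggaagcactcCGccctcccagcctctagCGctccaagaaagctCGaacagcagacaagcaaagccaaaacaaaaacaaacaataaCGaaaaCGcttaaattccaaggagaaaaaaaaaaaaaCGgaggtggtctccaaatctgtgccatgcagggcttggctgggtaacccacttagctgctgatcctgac
Dazl: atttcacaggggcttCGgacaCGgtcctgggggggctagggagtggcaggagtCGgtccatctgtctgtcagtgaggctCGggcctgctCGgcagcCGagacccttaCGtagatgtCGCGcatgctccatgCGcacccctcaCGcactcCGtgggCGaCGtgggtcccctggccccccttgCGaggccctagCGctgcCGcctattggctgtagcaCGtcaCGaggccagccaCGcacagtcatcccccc
Nap1l5: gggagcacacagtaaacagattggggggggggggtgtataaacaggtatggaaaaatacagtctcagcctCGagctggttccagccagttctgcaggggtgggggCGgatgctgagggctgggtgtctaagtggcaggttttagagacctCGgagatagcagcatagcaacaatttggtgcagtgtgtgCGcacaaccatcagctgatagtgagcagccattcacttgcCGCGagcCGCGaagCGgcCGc
Csn2: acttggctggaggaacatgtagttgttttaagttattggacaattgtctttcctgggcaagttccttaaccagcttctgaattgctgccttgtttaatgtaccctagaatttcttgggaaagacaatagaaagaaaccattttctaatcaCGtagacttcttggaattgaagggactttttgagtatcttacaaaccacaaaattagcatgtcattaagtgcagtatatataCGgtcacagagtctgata
These stretches held 34 CpGs in Map2, 8 in Sst, 9 in Nkx2-1, 20 in Dazl, 10 in Nap1l5 and 2 in Csn2. Over all 17801 promoters the median was 10 CpGs in 250 bases, and 93.2% held at least 1. The mean level of the listed CpGs was 0.0106 in Map2, 0.0608 in Sst and 0.0128 in Nkx2-1, against 0.964 in Dazl, 0.811 in Nap1l5 and 0.846 in Csn2. Dazl thus held more CpGs than Sst, Nkx2-1 and Nap1l5 and was the most methylated of the 6. Csn2 was listed at 0 RPKM in all 3 untreated libraries; the values of the other genes follow with their groups.

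Recovered depths of the untreated RNA libraries were 5.63, 9.97 and 5.74 M mapped reads, so a single read over 1 kb of exon amounted to 0.177 RPKM at most. The median SD of log2(RPKM + 1) between the 3 libraries was 0.138 over the 10880 placed genes at 1 RPKM or more. The peak lists differed far more in size: the H3K27ac lists held 4846 peaks (2.38 Mb) and 49701 peaks (71.6 Mb). Of the peaks of list 1, 88.7% overlapped one of list 2, and 7.55% of list 2 overlapped one of list 1. The H3K4me1 lists held 21512 and 19102 peaks, of which 22.1% and 24.8% overlapped a peak of the other list. Of H3K27ac peaks, 39.8% of list 1 and 13.9% of list 2 lay within 1 kb of a listed start, against 2.52% and 2.70% of H3K4me1 peaks. The bisulfite file listed 16.5 M CpGs with a mean level of 0.742, without coverage.

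Neuronal markers were among the most abundant transcripts, as the label of the cultures states. Stmn2, a tubulin-binding protein of growth cones, had 159, 124 and 150 RPKM in the 3 untreated libraries, and Map2 had 114, 90.9 and 111 RPKM. All 14 general neuronal markers were at 10 RPKM or more on average. Astrocyte markers were present (12 of 12 at 1 RPKM or more, Slc1a2 at 59.8 ± 3.40 and Gfap at 10.2 ± 2.27 RPKM, SD, n = 3), microglial markers were low (median 0.503 RPKM over 11 genes) and the proliferation marker Mki67 had 0.348 RPKM. Choroid plexus transcripts were also high in the untreated libraries: the 14 markers summed to 700, 508 and 762 RPKM untreated, against 31.1, 27.4 and 23.0 RPKM with TTX and 39.7, 40.0 and 44.8 RPKM with Bic/4AP. The untreated cultures read for RNA were therefore not neurons alone. In these bulk samples fewer cells of a type and less RNA per cell cannot be told apart.

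Genes with an acetylated promoter were expressed at far higher levels than genes without. For the 1580 genes with H3K27ac in both lists, the median was 25.0, 26.0 and 24.9 RPKM in the 3 libraries. It was 18.6, 20.5 and 18.9 RPKM for the 3445 genes with a peak in list 2 alone, and 0.695, 0.856 and 0.796 RPKM for the 12721 genes with a peak in neither. The order was the same in every library, and the classes differed by much more than the libraries did. On the log2(RPKM + 1) scale, genes acetylated in both lists stood above unacetylated genes by 3.94, 3.86 and 3.85, or 3.88 ± 0.05 (SD, n = 3 libraries). Genes are not independent replicates and were marked by the same lists in every library, so no test was made of this difference.

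The difference was mostly one between expressed and silent genes. Among genes acetylated in both lists, 96.7% were at 1 RPKM or more, against 48.1% of unacetylated genes. Among genes at 0.5 RPKM or more alone the gap was 1.49 ± 0.08. Within list 2, median expression rose with the peak score, an authors' value that describes peak strength within that list: it was 17.7 RPKM for scores of 50 to 200, 20.8 for 200 to 500, 25.0 for 500 to 1000, 28.4 for 1000 to 2000, and higher again in the 351 genes at 2000 or more. Spearman's rho between score and mean RPKM was 0.189 over 5025 genes, which share these libraries and include the tied top scores.

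**Figure D1:**
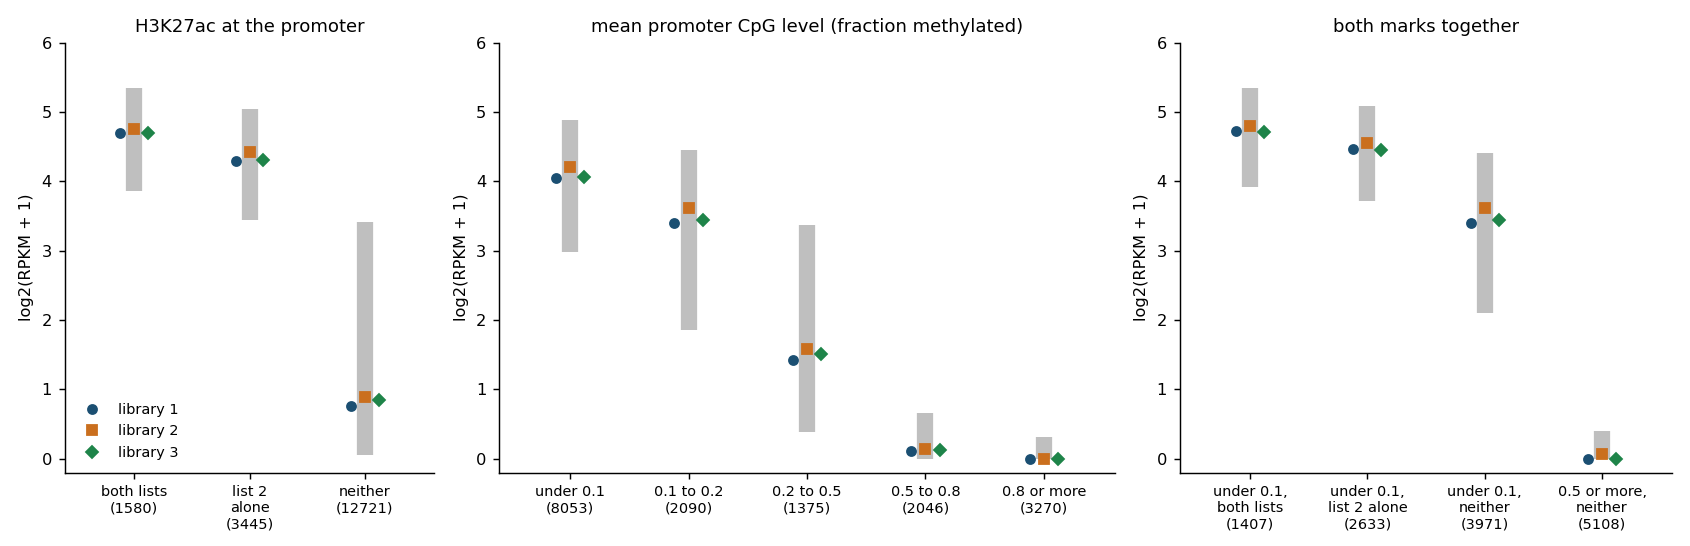
Expression of genes by promoter state in the 3 untreated libraries. The vertical axis is log2(RPKM + 1), points are the median of each library, grey bars run from the lower to the upper quartile of genes by mean RPKM, and the number of genes is in parentheses. Genes acetylated in both lists had medians of 24.9 to 26.0 RPKM, and medians were at 0 in every library for the 3270 promoters at a CpG level of 0.8 or more.

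Of the 606 genes at 50 RPKM or more, 80.2% carried list 2 acetylation, 37.3% carried it in both lists and 118 had none in either. Of the 6 highest placed genes, 5 were acetylated in both lists: Tmsb4x, an actin-binding peptide (168, 137 and 163 RPKM), the noncoding RNA Malat1 (163, 110 and 166), the tubulin Tuba1a (136, 110 and 120), the adaptor protein Ywhae (132, 101 and 125) and the elongation factor Eef1a1 (131, 97.1 and 119). Untreated library 2 was the lowest of the 3 for each of these genes. Their promoter CpG levels lay between 0.00520 for Malat1 and 0.179 for the X-linked Tmsb4x. The remaining one, the membrane glycoprotein Gpm6a (140, 109 and 135 RPKM), carried no H3K27ac at its first listed start and a level of 0.158. Its other listed start, more than 100 kb downstream, was acetylated in both lists, with a score of 207 in list 1 and the tied top score in list 2, and had a level of 0.0463.

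The highest promoters by summed score in both lists were not those of the most abundant transcripts. The list 2 score piles up at 3100, the value of 164 placed promoters with 13 above it, so equal scores there do not show equal acetylation. All 6 highest promoters had that value, and list 1 alone set their order. They were those of Brd2, a reader of acetylated histones (36.4 ± 1.49 RPKM, SD, n = 3), H2-DMa (11.1 ± 1.81), Zc3h4 (13.4 ± 1.32), the postsynaptic scaffold Lrrc7 (47.1 ± 4.76), the respiratory assembly factor Cox20 (33.4 ± 4.06) and the mitochondrial ribosomal protein Mrps18b (21.8 ± 4.89). All 6 promoters were unmethylated, at 0.00566 to 0.0147. Brd2 and H2-DMa share the same peaks, so their scores are 1 measurement. Of the 3432 genes under 0.1 RPKM in every untreated library, 67 carried list 2 acetylation and 3 carried it in both lists: D030047H15Rik, Ppp2r2cos and Moap1. Moap1, a modulator of apoptosis, had 0.0476, 0.0538 and 0 RPKM with an unmethylated promoter (0.0455), while the noncoding Ppp2r2cos was at 0 in all 3 libraries with a methylated one (0.697).

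Promoter methylation separated genes as sharply. Median expression fell from class to class: over the 3 libraries it averaged 16.2 RPKM for 8053 genes with a level under 0.1, 10.2 for 2090 genes at 0.1 to 0.2, 1.84 for 1375 genes at 0.2 to 0.5 and 0.0937 for 2046 genes at 0.5 to 0.8. It was 0 in each library for 3270 genes at 0.8 or more. The share of genes at 1 RPKM or more was 92.0% for unmethylated promoters and 15.7% for the 5316 methylated promoters. Unmethylated minus methylated, the gap in median log2(RPKM + 1) was 4.05, 4.13 and 4.06 in the 3 libraries (4.08 ± 0.04, SD, n = 3). Its size depended on how silent genes entered: it was 7.15 with a pseudocount of 0.1 and 2.51 among genes at 0.5 RPKM or more. Spearman's rho between promoter level and mean RPKM was -0.667 over 16834 genes, and -0.291 over the 10815 of these at 1 RPKM or more. The relation was thus much weaker once silent genes were left out.

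Acetylation and methylation were not interchangeable. Of unmethylated promoters, 1407 were acetylated in both lists, with medians of 25.4, 26.7 and 25.1 RPKM in the 3 libraries, and 3971 carried no H3K27ac, with 9.52, 11.2 and 9.89 RPKM. In log2(RPKM + 1) that was a gap of 1.26 ± 0.07, where all genes together gave 3.88. Without H3K27ac list 2, with acetylation taken from list 1 alone, it was 0.79. Of unmethylated and unacetylated genes 86.8% were still at 1 RPKM or more. Methylated promoters without H3K27ac, 5108 in all, had medians of 0, 0.0449 and 0 RPKM. Another 208 genes combined a methylated promoter with a peak in either list, at a median of 0.284 RPKM by mean expression.

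CpG content moves with both marks, so the classes were also set side by side within bands of it. CpG content is given as observed over expected CpGs in the 300 bases around the start; its rho with mean RPKM was 0.652 over 17801 genes. In the 8683 genes at 0.6 or more, medians averaged 25.1 RPKM for promoters acetylated in both lists and 9.82 RPKM for unacetylated ones. In the 5537 genes under 0.3 they were 26.6 RPKM for 57 acetylated genes and 0.00966 RPKM for 5199 unacetylated genes. In the CpG-rich band, unmethylated promoters had 16.9 RPKM and the 144 methylated ones 0.163 RPKM; in the CpG-poor band, 138 unmethylated promoters had 10.0 RPKM and 4021 methylated ones 0.00965 RPKM. Acetylated promoters thus had similar medians at high and low CpG content, and methylated promoters had medians under 0.2 RPKM in both bands.

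**Figure D2:**
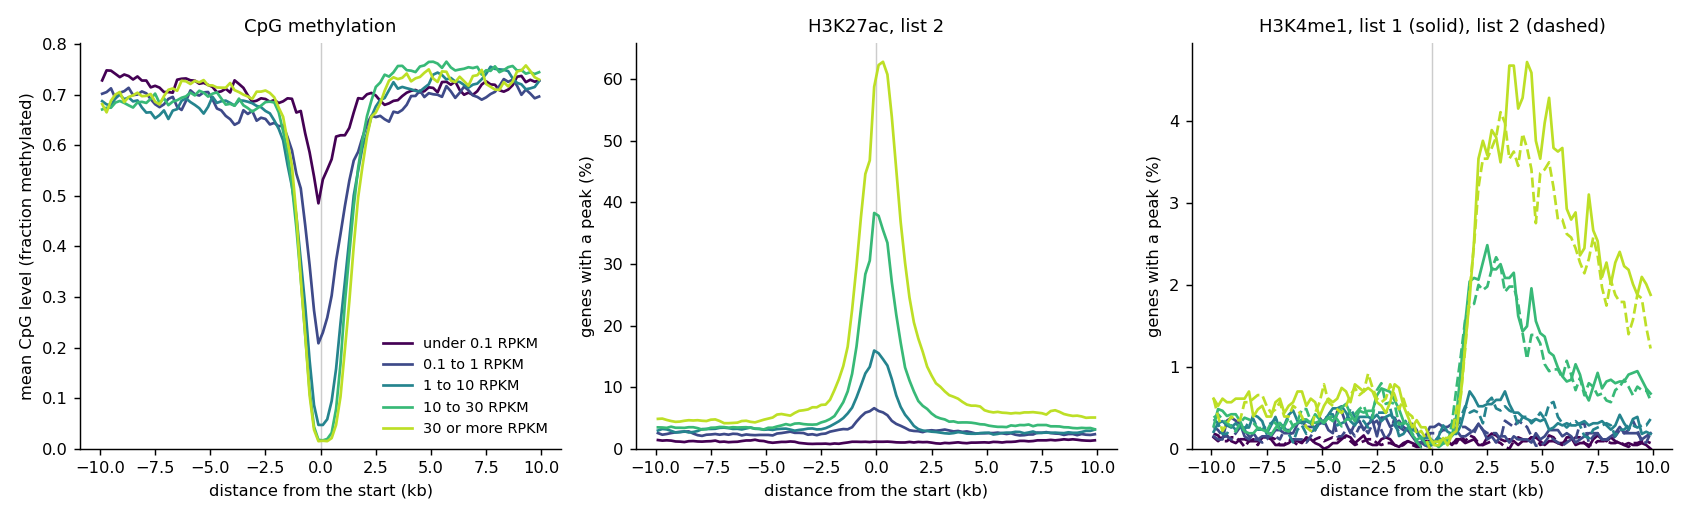
Marks within 10 kb of the first listed start, in bins of 200 bases, for genes in 5 classes of mean RPKM. The left plot gives the mean CpG level, the middle plot the percentage of genes with an H3K27ac peak of list 2 and the right plot that with an H3K4me1 peak of list 1 (solid) or list 2 (dashed). CpG levels dipped to 0.0150 in genes at 30 RPKM or more and to 0.485 in genes under 0.1 RPKM, and H3K4me1 was most frequent downstream of the start in the highest class.

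The dip in methylation around the start deepened with expression. The lowest bin averaged 0.485 in genes under 0.1 RPKM, 0.209 at 0.1 to 1, 0.0471 at 1 to 10, 0.0166 at 10 to 30 and 0.0150 at 30 or more. Flanking levels differed little between the classes and lay between 0.708 and 0.730. In the 4 classes at 0.1 RPKM or more, H3K27ac of list 2 had its highest bin 100 bases before or 300 bases after the start, at 6.59%, 15.9%, 38.3% and 62.8% of genes in order of expression. In genes under 0.1 RPKM it reached at most 1.54% of genes in any bin.

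H3K4me1 was nearly absent from the start and lay inside expressed genes. In genes at 30 RPKM or more, the bins of 200 bases on either side of the start carried a peak of list 1 in 0.0875% of genes and of list 2 in 0.0437%, as the mean of both bins. The shares reached 4.72% at 4300 bases and 4.11% at 3100 bases downstream. In genes under 0.1 RPKM the highest bin of either list was 0.186%. Between 2 and 10 kb from the start on both sides, a peak of list 1 was found in 2.28% of genes under 0.1 RPKM, 5.45% at 0.1 to 1, 8.83% at 1 to 10, 18.2% at 10 to 30 and 32.1% at 30 or more. List 2 gave 2.44%, 5.14%, 8.55%, 17.9% and 30.5% in the same order. Although most peaks of one list had no partner in the other, the lists gave nearly the same frequency in each class of genes.

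At promoters, H3K4me1 was too rare to relate firmly to expression. Both lists marked 30 promoters, with medians of 5.14, 7.26 and 5.89 RPKM, and neither list marked 17605, with 3.93, 4.90 and 4.26 RPKM. The gap was 0.37 ± 0.06 (SD, n = 3), and it changed sign with the window: it was -0.71 within 500 bases of the start and 1.86 within 2000 bases. It was also negative, at -0.56, among genes at 0.5 RPKM or more. Among the 30, the highest by expression (a choice made after their values were seen) were Celf3, an RNA-binding protein of neurons (55.8 ± 7.76 RPKM), and the neurotransmitter transporter Slc6a17 (48.1 ± 2.29 RPKM). Both had methylated first listed promoters, at 0.731 and 0.738, with H3K27ac in list 2.

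Inside genes, both histone marks became more frequent with expression while methylation barely moved. Among genes of 10 to 100 kb, whose median length lay between 22.5 and 30.7 kb in every class, an H3K4me1 peak of either list lay in the body of 4.69% of genes under 0.1 RPKM, 9.14% at 0.1 to 1, 14.0% at 1 to 5, 20.2% at 5 to 10, 28.3% at 10 to 20, 45.2% at 20 to 50 and 58.0% at 50 or more. For H3K27ac of list 2 the shares were 13.5%, 20.2%, 23.8%, 28.9%, 36.1%, 46.6% and 62.5%. The median body CpG level of all measured genes was 0.822, 0.812, 0.815, 0.829, 0.842, 0.836 and 0.815 in the same classes. It was highest at 10 to 20 RPKM and lower again at 50 or more. Genes at 10 RPKM or more had a median body level 0.0194 ± 0.0004 above that of genes under 1 RPKM (SD, n = 3 libraries, which share 1 methylome), and rho over 14361 genes was 0.104. Genes at 20 RPKM or more stood above genes under 0.1 RPKM by 0.0102. The interquartile range was far wider, at 0.778 to 0.878 in genes at 10 RPKM or more and 0.760 to 0.853 in genes under 1 RPKM, so the bodies of the 2 classes largely overlapped.

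**Figure D3:**
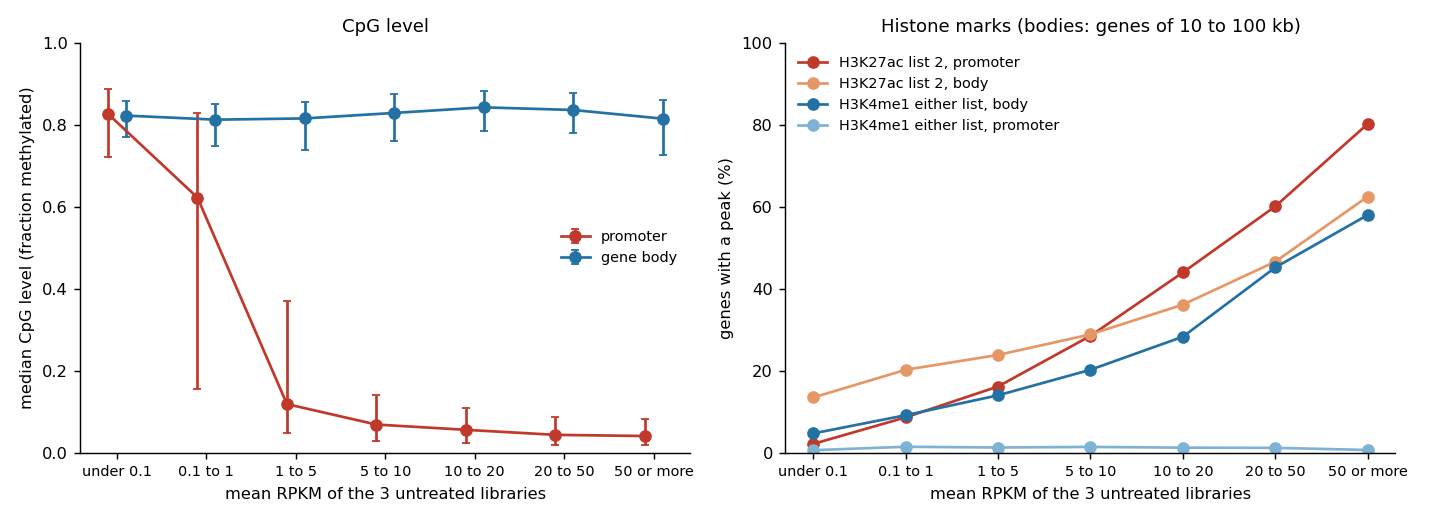
Marks against expression in the untreated cultures, in 7 classes of mean RPKM. The left plot gives the median CpG level of promoters and gene bodies with bars from the lower to the upper quartile; the right plot gives the percentage of genes with a peak. Promoter levels fell to 0.0407 in the highest class while body levels stayed between 0.812 and 0.842, and H3K4me1 in bodies reached 58.0% of genes.

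Named groups of genes fell into these states in different ways. For comparison, 28.2% of all placed genes carried list 2 acetylation at the promoter, 8.88% carried it in both lists, 47.8% of measured promoters were unmethylated and 31.6% methylated. Of 37 placed genes for cytosolic ribosomal proteins, 26 carried list 2 acetylation, 32 were unmethylated and none was methylated. Rpl4 had 75.8, 60.4 and 67.1 RPKM, acetylation in both lists and a level of 0.00458. Of 22 placed genes of the respiratory chain, 19 carried list 2 acetylation and 18 were unmethylated. The ATP synthase subunit Atp5b had 108, 82.7 and 103 RPKM and a level of 0.0231. Every placed member of both groups was at 10 RPKM or more.

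Genes of glutamatergic synapses and identity were acetylated throughout. All 15 placed members carried list 2 acetylation and 6 carried it in both lists, at a median of 46.5 RPKM. Camk2b, a subunit of the calcium/calmodulin-dependent kinase II, had 91.4, 70.7 and 97.3 RPKM, an acetylation score of 3100 in list 2 and an unmethylated promoter (0.0209). The transcription factor Neurod6 reached a similar level, at 93.6, 76.0 and 89.7 RPKM, likewise at the tied top score of list 2 but with a level of 0.291 over 21 CpGs. Of the general neuronal genes, 7 of 9 placed carried list 2 acetylation, among them Map2 (score 498). The RNA-binding proteins Elavl4 and Rbfox3 made up the rest. Rbfox3, known as the neuronal antigen NeuN, had 27.2, 26.8 and 30.5 RPKM. Its only listed promoter was methylated (0.660) and carried no H3K27ac peak. Elavl4 had 35.4 RPKM on average, with an unmethylated promoter (0.0455) at the first of its 4 listed starts. Neither gene lacked the mark elsewhere. From 1 kb before to 1 kb after the annotated gene, Rbfox3 held 2 H3K27ac peaks of list 1 and 18 of list 2. Elavl4 held 1 peak of each list.

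Genes of GABAergic neurons were expressed too, with acetylation at some of them. Of 12 placed members, 5 carried list 2 acetylation and 2 carried it in both lists; 9 were unmethylated, and the median was 22.3 RPKM. The GABA-synthesizing enzymes Gad1 (79.5, 65.7 and 71.1 RPKM, both lists, level 0.0128) and Gad2 (67.3, 58.6 and 60.9 RPKM, list 2, level 0.0266) were acetylated. Sst had 83.0, 72.8 and 67.8 RPKM, with a mean of 74.5 against 72.1 for Gad1, and carried no H3K27ac peak, with a level of 0.113. Vip and Pvalb, which mark other interneuron classes, were methylated at 0.588 and 0.841 and had 14.6 ± 3.19 and 5.30 ± 1.79 RPKM (SD, n = 3).

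H3K4me1 was also counted inside the genes of these groups. Counting every peak from 1 kb before to 1 kb after the annotated gene, the 25 excitatory genes held 284 peaks of list 1 and 234 of list 2 over 4878 kb, or 5.82 and 4.80 per 100 kb. The 17 inhibitory genes held 2 and 4 peaks over 1974 kb, or 0.101 and 0.203 per 100 kb. All placed genes together had 1.69 and 1.48 per 100 kb. Other groups had pooled densities like the excitatory genes: 6.60 and 5.66 in general neuronal, 6.25 and 6.60 in ribosomal and 5.61 and 7.01 in activity-induced genes. Pooled densities can rest on few genes: of the 119 list 1 peaks in general neuronal genes, 69 lay in Rbfox3. Genes with peaks of both lists made up 48.0% of excitatory, 42.9% of general neuronal, 14.0% of ribosomal and 15.0% of activity-induced genes. The share was 5.88% in inhibitory and 11.7% in all placed genes. The bodies of genes of 10 to 100 kb at 50 RPKM or more had 5.33 per 100 kb as the mean of both lists. Median expression of the groups was 46.5 RPKM over 25 excitatory and 36.0 RPKM over 17 inhibitory genes. H3K27ac of list 2 had 8.92 per 100 kb in excitatory, 2.58 in inhibitory and 3.07 in all placed genes. Rbfox3, with no acetylated promoter, held 69 and 71 H3K4me1 peaks over 422 kb, Camk2b held 33 and 31 over 96.7 kb and Map2 held 21 and 15 over 267 kb, while Gad2 held none in either list over 72.9 kb.

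Genes that neuronal activity induces were unmethylated in the resting culture whatever their expression. All 15 placed members had levels between 0.00576 and 0.0757, and 8 carried list 2 acetylation. Bdnf, a secreted neurotrophin, had 23.5, 23.7 and 21.6 RPKM. Of its 7 listed starts, the first 5 along the chromosome were acetylated in list 2 and had levels of 0.00100 to 0.0373, whereas the last 2 had no peak and levels of 0.788 and 0.787. The nuclear receptor Nr4a3 had 45.6, 49.8 and 39.8 RPKM with a list 2 score of 3100. Fos, a subunit of the AP-1 transcription factor, had 8.39, 12.6 and 8.24 RPKM with no H3K27ac peak in either list and a level of 0.00576. The neuronal transcription factor Npas4 had 6.82, 9.70 and 8.98 RPKM with a list 2 score of 323 and a level of 0.0757. Klf4 and Egr2, the lowest of the group, had 1.02 ± 0.476 and 0.983 ± 0.139 RPKM (SD, n = 3) and were unmethylated as well.

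Developmental regulators had unmethylated promoters, like most active genes, but were nearly silent. Of 31 placed members, 28 were unmethylated, with a median level of 0.0264, and none carried H3K27ac in either list. Their median was 0.0705 RPKM, and 1 was above 1 RPKM on average: Pax1, with 1.01, 2.32 and 0.396 RPKM. Nkx2-1, whose upstream CpGs are shown above, had 0.743, 1.01 and 0.608 RPKM and a promoter level of 0.0169. Low methylation extended into the genes: the median body level was 0.0587 in the 22 members measured, against 0.837 in the genes at 10 RPKM or more, with 0.0140 in Nkx2-1. The 2 sets were not matched for length. The 43 listed regulators had a median span of 6.35 kb, and the measured genes at 10 RPKM or more a median length of 28.5 kb. Bodies of short genes lie nearer the dip at the start, and the part of length was not tested. The promoters at 0.1 or more were those of Pax8 (0.436), Barx1 (0.127) and Pax5 (0.110), none of which reached 0.1 RPKM on average. Such genes are known as targets of the Polycomb repressors, whose mark was not analysed here.

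Germline genes showed the opposite combination, CpG-rich and methylated. All 18 placed members were methylated, at a median of 0.882, although their CpG content of 0.723 (median observed over expected) exceeded the 0.582 of all placed genes. None carried H3K27ac, and the median was 0.223 RPKM. Dazl was the highest at 2.87, 4.40 and 3.23 RPKM. Its level over the 2 kb promoter was 0.583, the lowest of the group, against 0.964 in the upstream stretch shown above. Of 15 measured genes specific to other tissues, 14 were methylated, at low CpG content (median 0.222 over 18 placed genes). Among them Krt10, a keratin, was the one with H3K27ac at the promoter (list 2, score 97.3). It had 4.25 ± 1.13 RPKM and a promoter level of 0.905. This holds for promoters only. Counted over the spans of the 24 listed genes with 1 kb on each side, there were 2 H3K27ac peaks of list 1 and 33 of list 2. List 2 had 5.77 per 100 kb there against 3.07 in all placed genes, a pooled density that can rest on few genes.

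Of 14 placed genes of the methylation machinery, 12 were unmethylated and 7 carried list 2 acetylation. Dnmt3a, the de novo methyltransferase that is abundant in neurons, had 38.1, 36.7 and 38.1 RPKM, a list 2 score of 250 and a level of 0.00656. Dnmt3b had 0.562 ± 0.110 RPKM with an unmethylated promoter (0.0529) and Dnmt3l, the catalytically inactive cofactor, had 0.138 ± 0.0107 RPKM with a methylated one (0.832). The maintenance enzyme Dnmt1 had 13.6, 14.6 and 13.4 RPKM although its first listed start was methylated (0.903). The dioxygenase Tet2 was acetylated in both lists at 23.6 ± 1.21 RPKM.

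**Figure D4:**
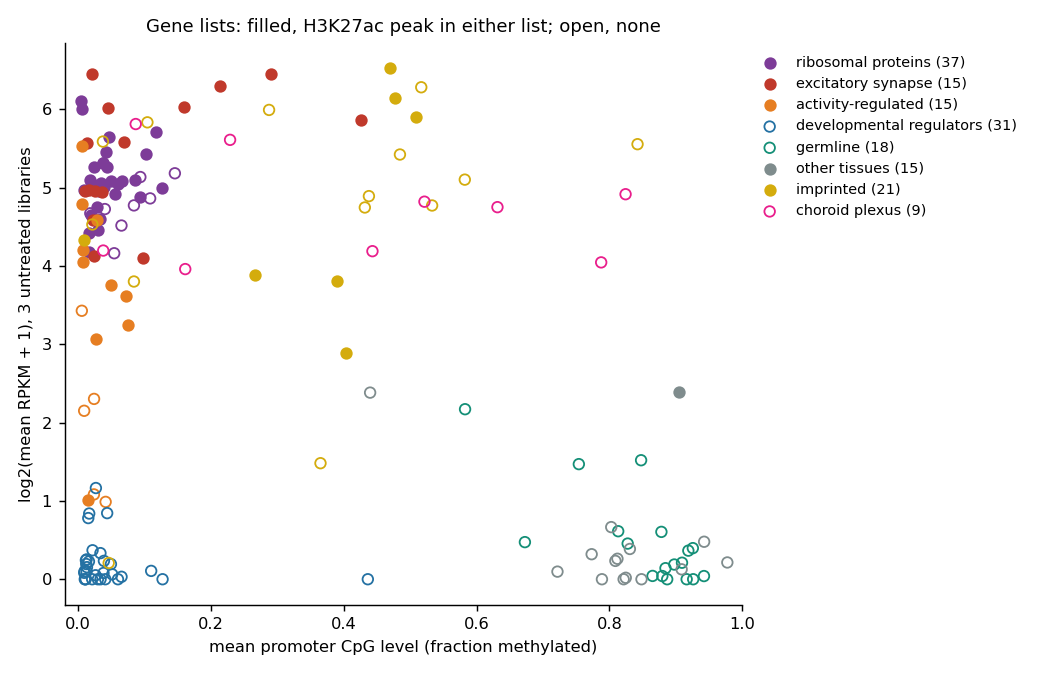
Mean untreated expression against promoter CpG level for the placed members of 8 gene groups, with numbers of genes in the key. Filled points have an H3K27ac peak in either list, open points none. Developmental regulators lie at low level and low expression, germline genes at high level and low expression, and imprinted genes between them at a median level of 0.404.

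Imprinted genes, whose parental alleles are known to carry opposite states, lay between the classes. The median level of 21 placed members was 0.404; 5 were unmethylated and 5 methylated. Expression was high all the same, at 10 RPKM or more in 18 of the 21. Meg3, a maternally expressed noncoding RNA, had 91.0 ± 17.7 RPKM (SD, n = 3), acetylation in both lists and a level of 0.469. Nnat, a paternally expressed membrane protein, had 72.8, 67.2 and 69.8 RPKM, list 2 acetylation and a level of 0.477. Nap1l5 had 80.3, 68.4 and 81.4 RPKM and a level of 0.517 with no H3K27ac peak. Igf2, a growth factor, had a first listed promoter level of 0.842 and 48.8, 35.2 and 53.9 RPKM. The 5 unmethylated members included Ube3a (0.00888), a ubiquitin ligase gene acetylated in both lists, with 19.3, 18.6 and 19.4 RPKM.

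Expressed genes with methylated promoters were a minority, and some had another start with low methylation. Of the 5108 genes with a methylated first listed promoter and no acetylation, 759 were at 1 RPKM or more and 208 at 10 or more. Of these 208, 117 had 1 listed start or starts near each other. The remaining 91 had listed starts over 2 kb apart, against 1269 of all 17801 placed genes. Of the 91, 64 had another start with a level under 0.1. The highest were Nap1l5, the imprinted noncoding RNAs Ipw (79.8, 57.1 and 84.7 RPKM) and Rian (76.8, 61.2 and 78.7), the spectrin subunit Sptbn1 (69.8, 55.6 and 69.2), the growth factor homologue Fgf13 (67.2, 58.5 and 67.1) and the zinc finger factor Zbtb20 (64.1, 53.6 and 71.9). For Fgf13, whose first listed start had a level of 0.903, another start had 0.0844 and acetylation in both lists (scores 68.2 and 585). For Sptbn1, with 0.942 at the first listed start, the other start had 0.124 and H3K4me1 in both lists but no H3K27ac. Over all 1269 genes with starts over 2 kb apart, 466 had a start under 0.1 and another at 0.5 or more, and in 230 of these a start under 0.1 was acetylated in list 2, against 70 in which a start at 0.5 or more was.

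Genes whose transcripts were high in the untreated RNA and nearly gone in the treated libraries had no list 2 acetylation at the promoter. Of 6581 placed genes at 10 RPKM or more in every untreated library, 18 were under 1 RPKM in all 6 treated libraries. None of the 18 had list 2 acetylation at the promoter, against 56.5% of the 6581. Of 17 measured, 4 were unmethylated and 4 methylated, or 23.5% each. Among measured promoters of the 6581 genes, 77.2% were unmethylated and 3.37% methylated. Median CpG content (observed over expected) was 0.386 in the 18 and 0.807 in the 6581. Choroid plexus markers were among them, such as the transcription factor Otx2, with 15.9, 15.2 and 20.9 RPKM untreated, against 0.295, 0.536 and 0.232 with TTX and 0.248, 0.977 and 0.775 with Bic/4AP. All 9 placed choroid plexus markers lacked H3K27ac in both lists at their promoters, and the 14 genes of the list held 0 and 1 H3K27ac peaks and no H3K4me1 peak over 605 kb. Ttr, the gene of the choroid plexus secretory protein transthyretin, had 197, 131 and 198 RPKM untreated; it was not placed. Whether the samples read for RNA and for chromatin held the same cells was not tested.

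X-linked genes stood apart from autosomal genes in all 3 marks. Among genes at 10 RPKM or more, the median promoter level was 0.108 for 276 X-linked genes (quartiles 0.0800 and 0.159) and 0.0454 for 6750 autosomal genes (quartiles 0.0200 and 0.0907). H3K27ac of list 2 was at 35.1% of these promoters on X and 56.1% on autosomes. H3K4me1 was almost absent from X, with 5 of 21512 peaks in list 1 and 2 of 19102 in list 2, or 0.0232% and 0.0105%. For H3K27ac the X chromosome held 48 and 555 peaks, or 0.991% and 1.12%. By comparison, 798 placed genes lay on X, or 4.48% of all, so both marks had fewer peaks there than the share of genes. The X-linked neuronal genes Dcx, Syp and Syn1 had 73.0, 65.2 and 57.9 RPKM on average, H3K27ac in list 2, promoter levels of 0.0993 to 0.136 and no H3K4me1 peak. The labels do not state the sex of the embryos.

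The untreated chromatin was also set against expression in the treated cultures. Taking the untreated H3K27ac lists throughout, the gap was 3.94, 3.86 and 3.85 in untreated libraries, against 4.09, 4.16 and 4.25 with TTX and 3.93, 3.91 and 3.96 with Bic/4AP. Untreated minus TTX was -0.28 and untreated minus Bic/4AP was -0.05. The 3 untreated libraries lay below all 3 TTX libraries, and overlapped those with Bic/4AP. A two-sided exact permutation test over libraries gave p = 0.10 for TTX, the smallest p that 3 against 3 allows, and p = 0.3 for Bic/4AP; adjusted by Benjamini-Hochberg over 6 such tests these were 0.2 and 0.3. Among genes at 0.5 RPKM or more, the TTX difference was 0.07, of the opposite sign. The Bic/4AP difference was -0.46 in those genes, and 0.05 with list 2 alone or in genes with 1 listed start.

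**Figure D5:**
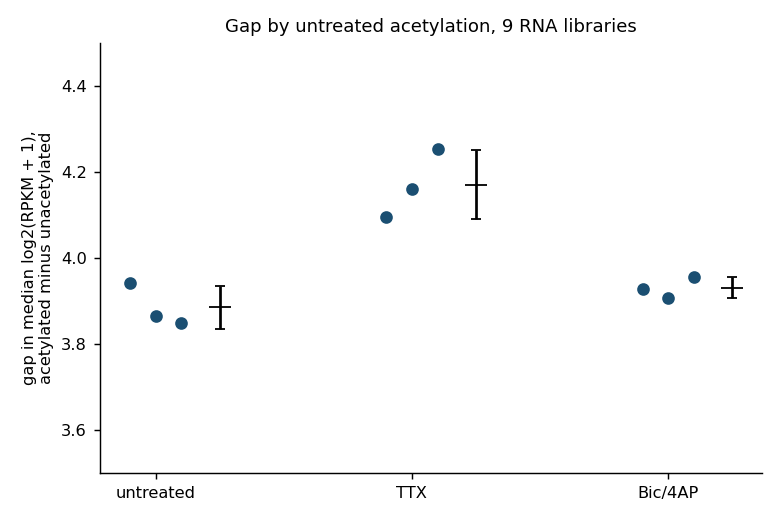
Gap in median log2(RPKM + 1) between genes acetylated in both untreated H3K27ac lists and genes in neither, in each of 9 RNA libraries; the vertical axis starts at 3.5. Points are libraries and bars the mean ± SD of 3. Untreated libraries lie at 3.85 to 3.94, TTX at 4.09 to 4.25 and Bic/4AP at 3.91 to 3.96.

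The share of unacetylated or methylated genes with measurable RNA was also set against that in treated cultures. Of genes without H3K27ac, 48.0 ± 0.842% were at 1 RPKM or more untreated, against 46.5 ± 0.918% with TTX and 44.9 ± 0.562% with Bic/4AP (SD, n = 3 libraries each). Of genes with methylated promoters the shares were 14.8%, 16.0% and 16.1% in untreated libraries, against 14.1%, 13.3% and 12.5% with TTX and 14.7%, 15.3% and 14.0% with Bic/4AP. Exact two-sided permutation tests gave p = 0.2, 0.1, 0.1 and 0.2 in that order. After Benjamini-Hochberg adjustment over the 6 tests these were 0.2 to 0.24. The smallest p that 3 against 3 libraries allow is 0.1, so no difference could pass 0.05 and these tests cannot decide. The choroid plexus markers, unacetylated where placed, moved with every untreated-against-treated contrast, at summed levels of 508 to 762 RPKM untreated, against 23.0 to 31.1 RPKM with TTX and 39.7 to 44.8 RPKM with Bic/4AP. None of the 14 was under 10 RPKM on average in the untreated libraries, and the part of such cells in these differences was not tested. Recovered depths differed as well, at 5.63 to 9.97 M mapped reads untreated, 9.68 to 12.6 M with TTX and 4.34 to 4.59 M with Bic/4AP. The part of depth was not tested either.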

How the data were processed

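RPKM values per gene and library, peak lists per sample and CpG levels were deposited by the authors. The deposited RPKM values scale reads by gene length and library depth; TopHat, Bowtie2 2.2.4, SAMtools 0.1.19 and mm10 appear, per the submitters' processing notes, with no role given. The peak caller MACS 1.4.1 is named per the submitters' processing notes, and the deposited peak score is 50 or higher in every list. The deposited methylation level is a fraction from 0 to 1 per CpG, without coverage: its depth is unknown, and counting intervals cannot be had. The bisulfite aligner, use of strand in counting and use of the input in peak calling are not given in the sources used here; overlapping and antisense genes cannot be told apart.

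Of 24062 lines in each expression file, 4 with a repeated name were left out, and 27 names read as dates. By symbol 22550 names and by synonym 1287 matched RefSeq genes on GRCm38.p6; 6036 matched names without a listed start were not placed, and 2388 placed genes share a promoter window. CpG letters of the RefSeq promoters fell on listed CpGs in 89.9% of cases, which checked strand and coordinates. Mapped reads were recovered from microRNA names, whose RPKM multiplied by hairpin length came out as whole reads within 0.05 for 86.6% to 89.6% of untreated values. Medians per library were taken on log2(RPKM + 1), with no filter on low values; folds of low genes are understated on that scale. Gene bodies ran from 1000 bases after the start to the annotated end, in genes of at least 3 kb with at least 20 listed CpGs. Tests were exact permutation tests over libraries. Code ran in Python 3.11.15 with numpy 2.4.6, pandas 2.3.3 and scipy 1.17.1, and was tested on simulated data.

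Members and gene lists were chosen with earlier results of these data known. Genes were named by rule: in each list the 3 of highest and 2 of lowest mean untreated RPKM and those whose promoter state differs from most of the list; Fos, Npas4, Bdnf, Map2, Gad2, Dazl, Dnmt3a and Ttr; and the 6 of highest expression, of highest expression with a methylated unacetylated promoter, and of highest summed acetylation, overall and among silent genes (3 qualified). Others (Celf3, Slc6a17, Csn2 among members tied at 0, Tet2, Igf2, Ube3a, Otx2, Gfap, Mki67, Dcx, Syp and Syn1) were chosen after their values were seen. The input sample, both treated bisulfite libraries and the Bic/4AP histone lists were not used here.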

Additional observations from a re-analysis of the deposited data

How the results depend on the processing

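The acetylation gap of 3.88 and the methylation gap of 4.08 stayed positive under every alternative run, but their size depends on how silent genes enter. With a pseudocount of 0.1 they were 4.85 and 7.15, and among genes at 0.5 RPKM or more 1.49 and 2.51. The acetylation gap was 3.70 in protein-coding genes, 4.26 without shared promoter windows, 4.12 in genes with 1 listed start (an alternative chosen after seeing the data), 3.76 for scores of 100 or more and 4.11 for overlaps of at least 500 bases; leaving out 1 library or list gave 2.80 (list 1 alone) to 3.90. At unmethylated promoters it was 1.43 without shared windows, 1.10 at 0.5 RPKM or more, 1.33 and 1.66 within 500 and 2000 bases and 1.53 with the longer overlap, and 0.79 to 1.30 with 1 library or list left out, the lowest from list 1 alone. The methylation gap was 4.15 in protein-coding genes, 4.17 without shared windows, 3.90 and 4.19 within 500 and 2000 bases, 4.00 with at least 10 CpGs and 3.98 for levels under 0.2 against 0.8 or more; it was 4.05 to 4.09 with 1 library left out. The H3K4me1 promoter gap of 0.37 was 0.64 in protein-coding genes, 0.78 without shared windows, 0.43 with the smaller pseudocount, -0.56 at 0.5 RPKM or more, -0.71 and 1.86 within 500 and 2000 bases, and 0.0615 (list 1 alone) to 0.81 (list 2 alone) with 1 library or list left out; scores of 100 or more and overlaps of 500 bases left too few genes for a value. The body difference of 0.0194 was 0.0183 in protein-coding genes, 0.0201 on autosomes, 0.0134 without shared windows, 0.0274 in genes with 1 listed start, 0.0185 and 0.0217 with at least 5 and 50 CpGs, 0.0102 for 20 RPKM or more against under 0.1 and 0.0280 in genes of 10 to 100 kb; with 1 library left out it was 0.0192 to 0.0195. Untreated minus TTX changed sign, to 0.0749, at 0.5 RPKM or more and was -0.36 to -0.16 with 1 library or list left out. Untreated minus Bic/4AP changed sign, to 0.0519 with list 2 alone and 0.0539 in genes with 1 listed start, and was -0.40 to 0.0519 with 1 library or list left out. The cause of these shifts was not tested.

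With the replicate number as a block, the differences were -0.28 (exact p = 0.25, the smallest that 3 pairs allow) for TTX and -0.05 (p = 0.5) for Bic/4AP. The best-correlated library bore the same number only for replicate 3 of Bic/4AP, so the numbers are not read as pairs.

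The small H3K27ac list 1 and the low overlap of the H3K4me1 lists limit which promoters count as marked, and a promoter without a peak is not shown to lack the mark. At 1 read per kb, levels under 0.2 RPKM rest on few reads. With 1 bisulfite library of another strain and no coverage, methylation has no replicate error.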
